A study of Mus musculus with 4 samples.

Results

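The respiratory chain of mitochondria was examined in mouse skin epithelial cells by reading every probe of the array whose gene name begins with Nduf, Uqcr, Sdha to Sdhd, Cox4 to Cox8 or Atp5. This name rule took 120 of 39429 non-control probes, which stood for 90 of 31896 genes. In 88 of the 90 genes a probe exceeded its background clearly in the 15p RNA of every one of the 4 arrays, or in the 0p RNA of every one, and these 88 are the members tested below, among 17363 tested genes. They are 36 genes of complex I, 4 of complex II, 7 of complex III, 17 of complex IV, 14 of complex V and 9 assembly and other factors. The remaining gene is Cox4nb, which the rule takes for its name. RefSeq lists it as Emc8, a subunit of a membrane protein complex of the endoplasmic reticulum, so it is no respiratory chain gene.

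The RNAs came from primary cells of adult C3H/HeN mouse skin, sorted as positive for CD49f (integrin alpha 6) and CD34, a combination used for hair follicle stem cells. The 15p cells had been carried through 15 sequential cultures of 10 days each on collagen I with Wnt-3a and were then sorted. The 0p cells were sorted with no such culture (0 passages). The labels name Wnt-3a as treatment of both RNAs. Each of the 4 two-colour arrays held 15p RNA in one dye and 0p RNA in the other, and each of 2 biological replicates has a dye-swapped pair of arrays. Whether separate animals gave the replicates is not in the labels, so the p-values measure the spread between these 2 replicates, which may be technical. Each replicate has a slide of its own, and slide and replicate cannot be told apart.

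The respiratory chain sits in the inner mitochondrial membrane. Complexes I and II pass electrons from NADH and succinate to ubiquinone, complex III passes them to cytochrome c, and complex IV passes them to oxygen. Complexes I, III and IV pump protons, and complex V, the ATP synthase, uses the gradient to make ATP. Most subunits are encoded in the nucleus, and many of their promoters are known targets of the factors NRF-1, GABP (also called NRF-2) and YY1. Some complex IV subunits exist as a general form and a form restricted to muscle, lung or testis.

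Of the lists of cell markers, 6 of 6 basal keratinocyte genes (among them Krt5, Krt14 and Itga6) were well above background on all arrays in both RNAs, as were 4 of 5 suprabasal keratinocyte genes (Krt10, Ivl, Lor and Sprr1b) and 3 of 6 bulge stem cell genes (Krt15, Sox9 and Nfatc1). Over the whole array 16776 of 31896 genes (52.6%) were, so a count of about this share says little about a cell type. Cd34, whose protein was used for the sort, was well above background on 0 of 4 arrays in 15p RNA and on 1 of 4 in 0p RNA. Lgr5 and Lhx2 were so on 0 arrays. Of the markers of other cells, 4 of 5 leukocyte genes, 3 of 5 endothelial, 3 of 5 melanocyte and 1 of 6 fibroblast genes were above background on all arrays in both RNAs. The part of such cells in the values below was not tested, and in bulk RNA fewer cells of a type and less RNA per cell cannot be told apart.

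The probes printed here are those of the member with the highest mean ratio (Uqcrc1) and the highest-ranked restricted isoform (Cox7a1). Each has 60 bases, read from the array files, and its ends lie further apart in the genome (build mm9) than its length: Uqcrc1 at chr9:108851008-108851487 (plus strand) and Cox7a1 at chr7:30970337-30970948 (plus strand). The spans of 480 and 612 bases mean that each probe joins separate stretches of the gene.
Uqcrc1 probe: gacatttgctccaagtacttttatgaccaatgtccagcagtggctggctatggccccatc
Cox7a1 probe: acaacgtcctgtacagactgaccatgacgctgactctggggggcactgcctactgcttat

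No respiratory chain gene was called higher or lower in 15p cells than in 0p cells. Of the 88 members 0 passed an adjusted p of 0.05 (limma, Benjamini-Hochberg over all tested genes), and so did 0 of 17363 genes, a share of 0%. The lowest adjusted p was 0.75 among members and 0.75 over all genes. At an unadjusted p of 0.05, 2 members passed, both higher in 15p (Uqcrc1 and Atp5e), which is 2.27% of members against 6.29% of all genes (2.92% higher and 3.37% lower). The mean log2 ratio of 15p over 0p was positive for 43 members and negative for 45, with a median of -0.0018, beside 0.0025 over all genes. It was highest in Uqcrc1, at 0.22. With each array centred on its median in place of loess, 72 of 88 members were positive, with a median of 0.048 beside 0.0246 over all genes, so the split by sign depended on the normalisation, while 0 members were called there too.

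The moderated 95% interval reached 0.12 on the log2 scale to either side in the median member, and in 88 of 88 members it lay within a 1.5-fold change in either direction. This was no property of the members, since 17305 of all 17363 genes had such an interval and the median reach was 0.12 there too. No member was beyond 2-fold on any array, where 113 of all 17363 tested genes were. At so small a share, the lack of such members says little about them. These intervals rest on 1 residual and 8.84 prior degrees of freedom, and the spread inside a dye-swapped pair does not enter them. They hold, like the direction of the ratios, only if the dyes were exchanged as the labels say, since averaging a pair with unexchanged dyes would cancel a difference between the RNAs. Whether they were exchanged was not tested.

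**Figure D1:**
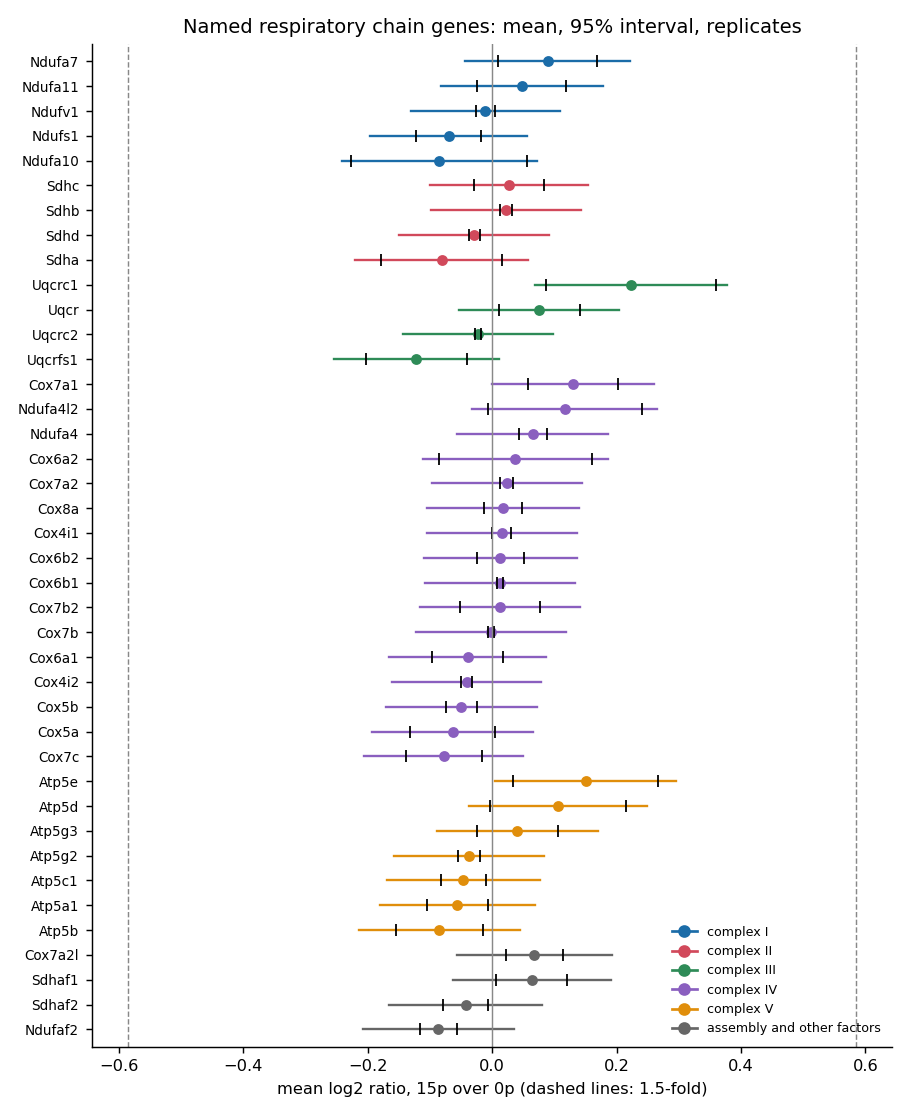
Mean log2 ratio of 15p over 0p (points) with its moderated 95% interval (coloured lines) for the named members, grouped by complex; black ticks are the 2 replicate values, each the mean of a dye-swapped pair, and dashed lines mark a 1.5-fold change. Every interval lies within the dashed lines, and those of Uqcrc1 and Atp5e lie above 0.

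Single arrays varied more than the means, and the arrays of a pair tended to oppose each other. On the arrays of replicate 1 the members' ratios had an SD of 0.12 where 15p was the Cy5 RNA and of 0.12 where it was the Cy3 RNA, and on those of replicate 2 an SD of 0.23 and 0.12. All tested genes had SDs of 0.14, 0.13, 0.29 and 0.14 on the same arrays. With ratios turned to 15p over 0p, the arrays of replicate 1 correlated at r = -0.87 across the 88 members and those of replicate 2 at r = -0.35, beside -0.55 and -0.40 across all genes. Genes are not independent replicates, and these are descriptions of 2 array pairs. A negative r means that a member that read higher in 15p on one array of the pair tended to read lower on the other.

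Arrays of one dye orientation correlated at 0.23 (15p in Cy5) and 0.57 (15p in Cy3) across members. The direction of each ratio rests on the dyes given in the labels, which was not checked by a gene known to differ. Written as Cy5 over Cy3, the same values test the dye instead. In the fit with a dye term 0 of 88 members were called, where 80 of all genes (0.461%) were, each brighter in Cy5. With the replicate number as a block the dye term called 661 genes (3.81%) and 3 members, among them Atp5b at 0.29 and Uqcrc1 at 0.28 (log2 Cy5 over Cy3). With that block 15p over 0p was called in 60 genes (0.346%) and 0 members. The cause of the opposed arrays was not tested.

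**Figure D2:**
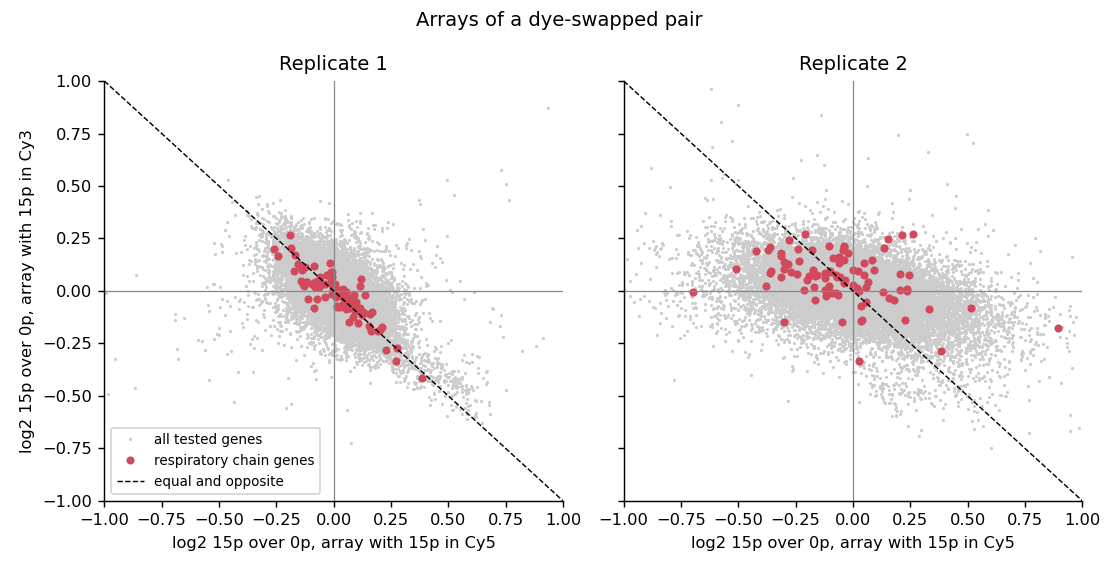
Log2 ratio of 15p over 0p on the array with 15p in Cy3 against the array with 15p in Cy5, for replicate 1 (left) and replicate 2 (right); red points are the 88 members, grey points all tested genes, and the dashed line marks equal and opposite values. Genes beyond a log2 ratio of 1, up to 108 on an array and none of them members, are not drawn. Members of replicate 1 lie along the dashed line (r = -0.87).

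By array, the members' median ratio was 0.021 (replicate 1, 15p in Cy5), -0.016 (replicate 1, 15p in Cy3), -0.064 (replicate 2, 15p in Cy5) and 0.075 (replicate 2, 15p in Cy3). All genes had 0.013, -0.011, 0.0076 and 0.0028. Replicate 2 thus held the widest split, with 33 and 66 of 88 members positive on its arrays, against 49 and 40 in replicate 1. In 31 members (35.2%) the sign was opposite between the dye orientations in both replicates, beside 32.2% of all genes. A single member had one sign on all 4 arrays (1.14%, against 6.78% of all genes, 3.67% with positive and 3.12% with negative ratios). It was Ndufb8, an accessory subunit of complex I that is named here for that count after its values were seen, at -0.039, -0.027, -0.066 and -0.021.

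**Figure D3:**
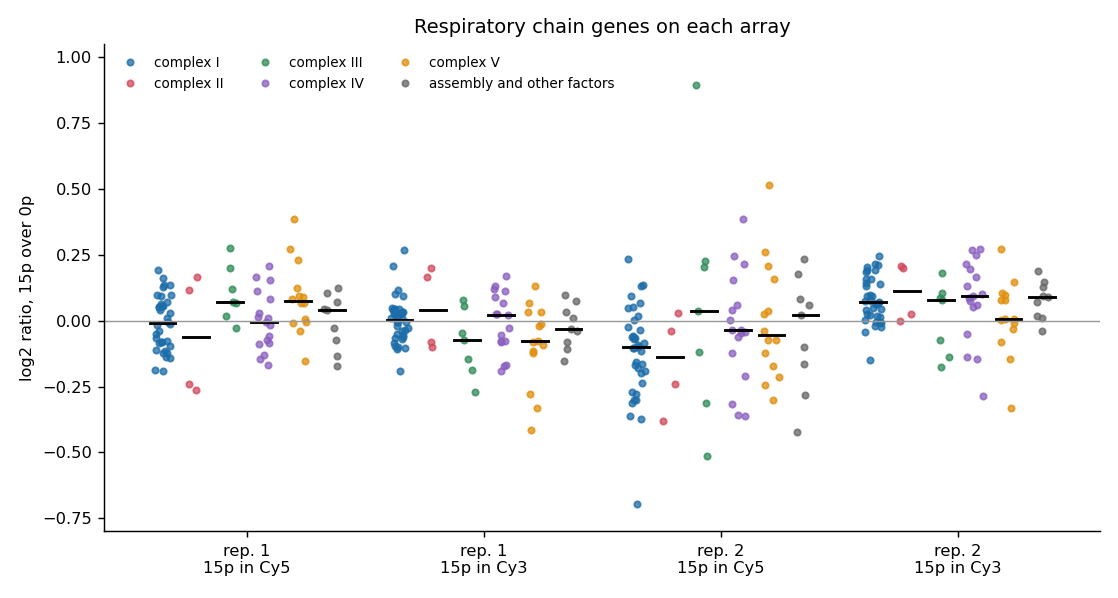
Log2 ratio of 15p over 0p of each member (points) on each of the 4 arrays, by complex, with a black bar at each group's median. Within every array the groups overlap, and in replicate 2 the complex I median is -0.10 where 15p carried Cy5 and 0.069 where it carried Cy3.

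In the paragraphs that follow, the 4 values of a gene are log2 ratios of 15p over 0p in the order replicate 1 (15p labelled with Cy5, then with Cy3) and replicate 2 (15p labelled with Cy5, then with Cy3). The mean and SD are over the 2 replicates, with each pair of arrays averaged first. None of the genes named passed the adjusted test.

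Complex I, the NADH dehydrogenase, had 15 of 36 members above 0 and a median of -0.011. Ndufs1, which carries iron-sulfur clusters, read -0.14, 0.10, -0.31 and 0.068, with a mean of -0.070 ± 0.074. Ndufv1, which holds the flavin that takes electrons from NADH, read -0.076, 0.026, -0.057 and 0.065 and averaged -0.011 ± 0.021. In Ndufs1 and Ndufv1 the sign followed the dye. Among accessory subunits, Ndufa10 was lowest at 0.14, -0.021, -0.30 and -0.15, a mean of -0.085 ± 0.20. The highest were Ndufa7, with -0.19, 0.21, 0.13 and 0.20 and a mean of 0.089 ± 0.11, and Ndufa11, with -0.065, 0.018, 0.23 and 0.0019 and a mean of 0.047 ± 0.10. Core and accessory subunits thus overlapped around 0.

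Complex II, the succinate dehydrogenase shared with the citrate cycle, had 2 of 4 members above 0. Sdha, the flavoprotein that oxidises succinate, had 0.12, -0.082, -0.38 and 0.024 and a mean of -0.081 ± 0.14. Sdhb, the iron-sulfur subunit, had 0.17, -0.10, 0.027 and -0.0013, with a mean of 0.023 ± 0.014. The membrane anchors Sdhc and Sdhd showed the dye most plainly. Sdhc read -0.26, 0.20, -0.040 and 0.21 (mean 0.027 ± 0.080), and Sdhd read -0.24, 0.17, -0.24 and 0.20 (mean -0.029 ± 0.012). In both anchors the ratio was negative wherever 15p carried Cy5 and positive wherever it carried Cy3. This was so for 3 of the 4 subunits in one dye direction or the other.

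Complex III, the cytochrome c reductase, held the highest member of all, and 3 of its 7 members lay above 0. Uqcrc1, a core protein of the complex, had 0.12, 0.055, 0.90 and -0.17, a mean of 0.22 ± 0.19 (SD, n = 2) and a 95% interval of 0.069 to 0.38. Its unadjusted p was 0.00918 and its adjusted p 0.75 in limma. The array of replicate 2 where 15p carried Cy5 stood far above the other 3, and its dye-swapped partner was below 0. Without that array the value of Uqcrc1 was 0.029. Normalised intensity of the probe was 6913 and 8287 in 15p RNA against 6509 and 6455 in 0p RNA of replicates 1 and 2. Uqcrc2, its partner core protein, had 0.017, -0.072, -0.12 and 0.084 and a mean of -0.023 ± 0.0066. Uqcrfs1, the Rieske iron-sulfur protein, had 0.066, -0.15, -0.51 and 0.11 and a mean of -0.12 ± 0.11, with its lowest value on the array where Uqcrc1 was highest. Uqcr (Uqcr11 in RefSeq), a small subunit, had 0.070, -0.049, 0.20 and 0.079 and a mean of 0.076 ± 0.092. The core proteins and the Rieske protein therefore did not share a direction.

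Complex IV, the cytochrome c oxidase, had 11 of 17 members above 0 and a median of 0.013. Of its general subunits Cox7c was lowest by its brightest probe, with -0.14, 0.11, -0.36 and 0.084 and a mean of -0.078 ± 0.086. Its other kept probes averaged 0.0060 and -0.0013. Both were positive, at 0.10 and 0.090, in replicate 1 with 15p in Cy5, so its rank and signs depended on the probe. Cox5a followed with -0.058, 0.068, -0.36 and 0.094 and a mean of -0.063 ± 0.096. Cox5b, which binds zinc, had -0.072, 0.022, -0.31 and 0.17, a mean of -0.049 ± 0.035. In the brightest probe of each, all 3 were negative wherever 15p carried Cy5 and positive wherever it carried Cy3. Cox4i1, the general form of subunit 4, was likewise split at -0.17, 0.17, -0.21 and 0.27, and its mean was 0.015 ± 0.021. Cox8a had the opposite split, 0.16, -0.19, 0.38 and -0.29, and a mean of 0.018 ± 0.044. The other kept probe of Cox8a read -0.078, 0.087, 0.12 and 0.042, so the split depended on the probe. Of the other general forms with a restricted counterpart, Cox6a1, Cox6b1, Cox7a2 and Cox7b had means of -0.040, 0.013, 0.024 and -0.0018. Ndufa4, once assigned to complex I and now counted with complex IV, had -0.0054, 0.091, -0.037 and 0.21 and a mean of 0.065 ± 0.032.

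Restricted isoforms of complex IV were dim, and 2 of them were not well above background. Cox8b, the muscle form of subunit 8, and Cox8c, a testis form, were well above background on 0 of 4 arrays in either RNA. Their mean spot intensities were 51 to 73.5 (Cox8b) and 45.8 to 78.8 (Cox8c) in 15p RNA, against 49 to 83.7 and 49.8 to 89.7 in 0p RNA, where negative control spots had medians of 47.5 to 75.2. Those that were above background on all arrays in both RNAs were Cox4i2, known from lung, Cox6a2 and Cox7a1, known from heart and skeletal muscle, Cox6b2, known from testis, Cox7b2, and Ndufa4l2, which is induced by low oxygen. Their mean spot intensities stayed between 81 (Ndufa4l2) and 361 (Cox6a2) in 15p RNA and between 80.7 (Cox7b2) and 336 (Cox6a2) in 0p RNA.

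Cox7a1 came closest to a difference among them, with -0.016, 0.13, 0.15 and 0.25, a mean of 0.13 ± 0.10, an interval of -0.00038 to 0.26 and an unadjusted p of 0.0506 from the limma fit. It was positive on 3 of 4 arrays, and its normalised intensity was 287.8 and 298.1 in 15p RNA against 276.4 and 259.2 in 0p RNA. Ndufa4l2 had 0.012, -0.027, 0.21 and 0.27 and a mean of 0.12 ± 0.18, with both higher values in replicate 2. Its mean was 0.355 with the processed signals of the scanner software and 0.354 in the deposited value table, where it was not called either. The others averaged 0.037 (Cox6a2), 0.013 (Cox6b2), 0.012 (Cox7b2) and -0.041 (Cox4i2). Beside these isoforms, 2 of 6 skeletal muscle genes (Acta1 and Mb), 2 of 5 heart genes (Myh7 and Tnnt2), 3 of 5 spermatogenic genes (Tnp1, Prm1 and Prm2) and 0 of 5 brown adipocyte genes were well above background on all arrays in both RNAs. These counts are near the share over the whole array or under it. The muscle genes Myh1 and Myh2 were so on 0 arrays. Mb (myoglobin) had 0.11, 0.12, 0.38 and 0.080 and a mean of 0.17, with an unadjusted p of 0.0137 (limma, not called), while Acta1, Myh7 and Tnnt2 averaged -0.040, -0.081 and -0.012. Whether such cells carried the isoforms was not tested.

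Complex V had 6 of 14 members above 0 and a median of -0.012. Atp5b, the catalytic beta subunit, had 0.39, -0.42, 0.024 and -0.33 and a mean of -0.085 ± 0.099. It read higher in whichever RNA was labelled with Cy5 on all 4 arrays. Atp5a1, the alpha subunit, had 0.066, -0.080, -0.21 and 0.0024 and a mean of -0.056 ± 0.069, and Atp5c1, the gamma subunit of the rotating stalk, had -0.0075, -0.012, -0.24 and 0.080 and a mean of -0.046 ± 0.051. Atp5e, the epsilon subunit, had 0.089, -0.020, 0.26 and 0.27, a mean of 0.15 ± 0.16 (SD, n = 2), an interval of 0.0046 to 0.30 and an unadjusted p of 0.0443 in limma. Atp5d, the delta subunit, had -0.038, 0.031, 0.51 and -0.083 and a mean of 0.11 ± 0.15. One array alone was far above 0, and without it the value was -0.032. Atp5g2 and Atp5g3 encode the same mature ring subunit, and averaged -0.037 and 0.041. The other kept probe of Atp5g2 averaged 0.037, so the sign of this gene depended on the probe.

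Assembly and other factors numbered 9, with 5 above 0. Cox7a2l, which helps join complexes III and IV, had -0.030, 0.074, 0.082 and 0.15 and a mean of 0.068 ± 0.065. The complex II factor Sdhaf1 had 0.043, -0.031, 0.23 and 0.0082 and a mean of 0.063 ± 0.081. Sdhaf2, which attaches the flavin to Sdha, had 0.069, -0.081, -0.28 and 0.13 and a mean of -0.042 ± 0.051. Ndufaf2, a complex I assembly factor, was lowest at -0.073, -0.040, -0.42 and 0.19, a mean of -0.086 ± 0.042. The 6 groups thus had medians between -0.012 and 0.013, and their members' ranges overlapped. Among genes with several probes (22 members), their means differed by a median of 0.027 and at most 0.12, and 11 of the 22 had probes of opposite sign.

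Fits that left out a single array gave other calls. They differ from the test above in a further choice, since they take single arrays with a dye term and so count the dye swaps of a replicate as separate arrays. With all 4 arrays taken in this way, 0 genes and 0 members were called. Without the array of replicate 1 where 15p carried Cy5, 3118 genes (18.0%) were called, 12 members among them (limma, adjusted over all tested genes). Uqcrc1 (0.42), Atp5d (0.24), Atp5e (0.19), Cox7a1 (0.17), Ndufa7 (0.17) and Ndufa4l2 (0.17) were then higher in 15p. The same values without the array of replicate 2 where 15p carried Cy5 were 0.029 for Uqcrc1, -0.032 for Atp5d and 0.108 for Atp5e. Cox7a1 was then at 0.0875, Ndufa7 at 0.0086 and Ndufa4l2 at 0.0659, and none of these genes was called. Members lower in 15p without the array of replicate 1 included Uqcrfs1 (-0.27), Sdha (-0.21), Ndufa10 (-0.19), Atp5b (-0.17) and Ndufaf2 (-0.17). In that fit the array of replicate 2 where 15p carried Cy5 counts as much as the other 2 together. It is alone in its dye orientation there, so the fit matches it exactly. The p-values behind these calls therefore measure only the spread between the other 2 arrays, not that of the lone array. Each fit that left out an array has such a lone array. With the array of replicate 2 where 15p carried Cy5 left out instead, Uqcrfs1 was at 0.023, Sdha at 0.043, Atp5b at 0.0059 and Ndufaf2 at 0.00092. Without an array of replicate 2 no member was called: 88 genes (0.507%) passed without the array where 15p carried Cy5 and 1 gene (0.00576%) without its partner. Without the other array of replicate 1, 0 genes were called.

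No tested gene of the wider pathway was called. Respiratory chain genes of mitochondrial DNA were listed too, but none of them was among the tested genes. The regulators Ppargc1a and Ppargc1b were not tested either, being well above background on at most 1 array in each RNA. Cyc1 (cytochrome c1), a complex III subunit that the name rule misses and the counts of complex III above leave out, averaged 0.064. The electron carriers Cycs, Etfa, Etfb and Etfdh averaged -0.090, -0.0014, 0.042 and 0.0051. Of 29 assembly genes outside the name rule 14 were above 0, and of 16 genes of mitochondrial biogenesis 8 were. Among these regulators, Nrf1 averaged 0.037, Gabpa -0.072, Tfam -0.058 and Esrra -0.032. The citrate cycle and pyruvate dehydrogenase list had 5 of 22 above 0 and a median of -0.030, and the mitochondrial carriers had 4 of 11 and a median of -0.039. Over all tested genes 51.4% were above 0, with a median of 0.0025. Whether these lists differ from that share was not tested. In each of these 5 lists 0 genes were called.

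Promoters of the members held the NRF-1, GABP and YY1 letter patterns searched in a larger share than promoters at large, by a margin that varied with the letters chosen. Median ratios of members with and without them lay close together. The RefSeq table (GRCm38.p6) holds 80 windows for 74 member genes among 32851 windows in all, each from 250 bases before to 50 after a gene's start. Median GC content was 58.8% in members and 52.7% over all windows, and the shares below were not adjusted for it. In all 13 letter patterns were searched on both strands, and they were picked with no rule set beforehand. Patterns of one factor overlap each other.

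The NRF-1 letters, GCGCA and GCGC with any base between, stood in 19 of 80 member windows (23.8%), against 4.6% of all windows. The palindrome with T between, and the form shifted by a base (TGCGCA before TGCG), stood in 7.5% and 6.25% of member windows, against 0.971% and 1% of all. For GABP the answer depended on the letters: the short CGGAAG stood in 41.2% of member windows against 16.9% of all, but the longer CCGGAAGT in 6.25% against 3.89%. The YY1 letters AAGATGGC stood in 15% against 2.75%, the same before GGC in 7.5% against 0.633% and GCCATNTT in 26.2% against 6.05%. Among general promoter letters, the TATA box TATAAA stood in 10% of member windows against 13.6% of all, CCAAT in 42.5% against 37.4%, GGGCGG (Sp1) in 45% against 35.7%, CCCGCCC (Sp1) in 36.2% against 25.6% and TGACGTCA (CRE) in 5% against 1.79%. A match of letters is not a site shown to be bound.

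**Figure D4:**
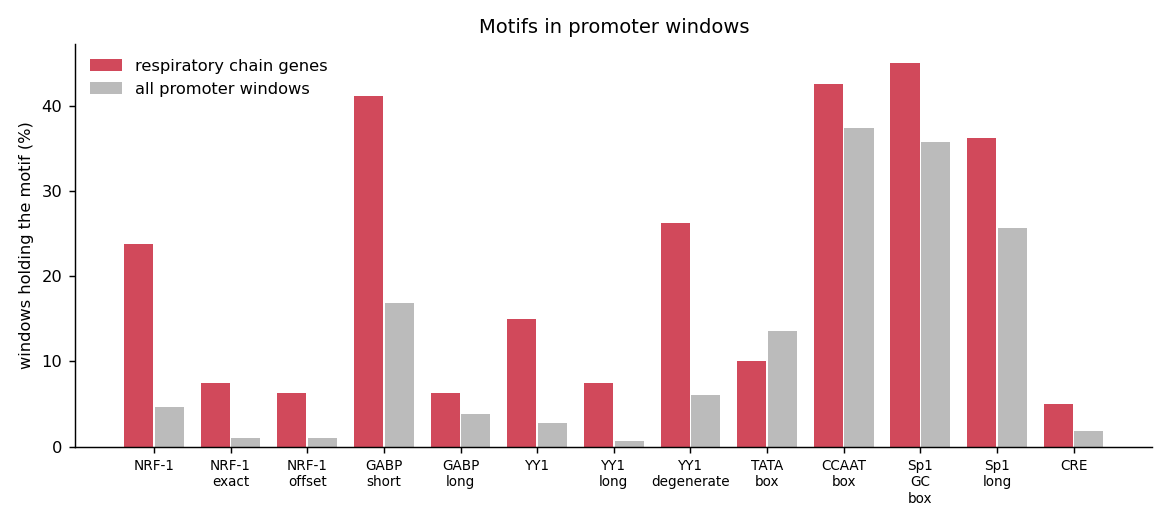
Share of promoter windows (percent) that hold each of the 13 letter patterns on either strand, in the 80 windows of respiratory chain genes (red) and in all 32851 windows (grey). The NRF-1 letters stand in 23.8% of member windows and 4.6% of all, and the long GABP form in 6.25% and 3.89%.

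Tested members with the NRF-1 letters (18 genes) had a median log2 ratio of 0.0073, against -0.0080 in the 55 without. For CGGAAG the medians were -0.0027 in 32 genes with it and -0.0018 in 41 without, and for AAGATGGC -0.012 in 11 and 0.0028 in 62. Over the 13 patterns the medians of genes that hold one ran from -0.032 (CRE, 4 genes) to 0.018 (the long GABP form, 5 genes), and those of genes without it from -0.0094 to 0.0073. All of these medians are smaller than the interval of a single gene reaches.

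These promoters of 3 members show the range (250 bases before the start, 5′ to 3′, GRCm38.p6, with NRF-1 and GABP letters in capitals). Sdha, at chr13:74350241-74350490 on the minus strand, has NRF-1 letters that begin 98, 55 and 10 bases before the start. Cox6a1, a general complex IV form at chr5:115348959-115349208 on the minus strand, has them 162 and 117 bases before the start and the short GABP letters, on the other strand, 16 bases before it. Cox7a1, the muscle form at chr7:30183921-30184170 on the plus strand, has none of these letters in this stretch. Of the 13 complex IV genes with a window, Cox6a1 alone held the NRF-1 letters. The pair thus shows no contrast of general and restricted forms. The letters stood in 7 of 32 genes of complex I, 2 of 3 of complex II, 1 of 4 of complex III, 6 of 13 of complex V and 1 of 9 assembly and other factors.
Sdha promoter: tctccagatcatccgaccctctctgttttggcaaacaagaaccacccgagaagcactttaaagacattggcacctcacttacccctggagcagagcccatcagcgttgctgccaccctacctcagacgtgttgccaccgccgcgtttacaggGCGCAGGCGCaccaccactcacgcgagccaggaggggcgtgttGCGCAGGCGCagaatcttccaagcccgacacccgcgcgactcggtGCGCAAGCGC
Cox6a1 promoter: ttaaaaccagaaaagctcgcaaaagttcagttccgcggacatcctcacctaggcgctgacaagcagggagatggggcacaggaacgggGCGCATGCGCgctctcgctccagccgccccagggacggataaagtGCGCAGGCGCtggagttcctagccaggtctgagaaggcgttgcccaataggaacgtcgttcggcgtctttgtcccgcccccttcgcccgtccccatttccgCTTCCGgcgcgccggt
Cox7a1 promoter: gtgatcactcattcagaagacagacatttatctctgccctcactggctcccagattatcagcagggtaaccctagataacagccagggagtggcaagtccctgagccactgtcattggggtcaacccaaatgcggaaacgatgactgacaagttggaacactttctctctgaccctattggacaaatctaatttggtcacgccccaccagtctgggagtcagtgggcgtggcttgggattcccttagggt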

How the data were processed

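RNA (200 ng) was labelled with Cy3 or Cy5, and 4 Agilent arrays received 825 ng of cRNA per dye, per the labels' protocols. The deposited files give the intensity of each spot and of its local background per dye, extracted with Agilent Feature Extraction 10.7.3.1 per the file headers and the submitters' processing notes. Per the file headers the processed intensity was background-subtracted and dye-normalised, and the deposited log10 ratio is Cy5 over Cy3. Deposited flag columns (0 or 1) mark irregular spots and those well above background, per the file headers. The authors' value table holds the same log10 ratios, and it was used as an alternative only.

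In R 4.3.3 with limma 3.58.1 and data.table (version 1.17.8), mean intensities were corrected with normexp (offset 50) and normalised within arrays by loess with control spots at weight 0. Irregular spots (154 to 286 an array) were left out, no spot was saturated, and spots of a probe were averaged. A probe was kept if all its spots were well above background on all 4 arrays in 15p or on all 4 in 0p RNA, which left 21663. Reading several spots by their majority in place of all was tried too, after the data were seen, and it kept the same members. The brightest kept probe stood for its gene. Ratios were turned to 15p over 0p, the arrays of a pair averaged, and the 2 replicate values tested against 0 (lmFit and eBayes, two-sided, Benjamini-Hochberg at 0.05). The dye was tested in a fit of the 4 arrays. The number of arrays limits the precision. Alternatives changed the correction, normalisation, filter, probe rule, arrays and pairing. Calculations on sequences used Python 3.11.15 with pandas 2.3.3 and Biopython 1.88. The fits were tested on simulated data whose spread followed the fitted model. A first simulation with each gene's own 2-replicate spread failed the test and was replaced.

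Named genes are the 2 highest and 2 lowest of each group, core subunits and complex IV and V isoforms. The values of 1 such gene are not reported here. Of the probes 118 matched RefSeq (GRCm38.p6), 6 under another symbol. Members, lists and tests were chosen with earlier results of these data known, and the letter patterns of promoters were kept in full after their shares were seen.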

Additional observations from a re-analysis of the deposited data

Results flagged for a closer look

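In the complex I accessory subunit Ndufa6, one of the 4 arrays stood apart from the others: replicate 1 with 15p in Cy5 gave a log2 ratio of -0.123, against 0.12, 0.094 and 0.098 on the other arrays. It was the only one of 88 members (1.14%) in which an array lay this far out, beside 4.72% of all tested genes, and chance alone flags about 1 in 20 groups. In 31 members the sign was opposite between the dye orientations in both replicates, and the difference between orientations was not tested gene by gene beyond the dye term given above.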

How the results depend on the processing

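Calls of members were 0 under every alternative run other than the fits that left out an array, which gave 0 to 12. Over all genes, calls were 0 to 3118 when an array was left out, 1 with no filter on dim probes and 0 under the other corrections, normalisations and probe rules. With a dye term and the replicate number as a block, 60 genes and 0 members were called. Same-numbered arrays share their RNAs, yet their deviations from the orientation means correlated at -0.26 across genes, where shared deviations would give a positive value. Dye calls were 80 over all genes, 661 with the replicate block, 289 with no filter, 44 with the mean over a gene's probes, 0 with processed signals, 0 with the deposited value table, 0 with an offset of 16, and 11657 with median centring. Of members 3 had a dye call with the block and 81 with median centring. With an array left out, dye calls were 0 to 5566 over all genes and 0 to 25 over members. The members' median ratio was 0.000902 with processed signals, 0.000885 with the deposited table, 0.00077 with an offset of 16 and 0.048 with median centring, where 72 of 88 members were positive and the median of all genes was 0.0246. It was -0.031 to 0.024 without one array, -0.00037 without replicate 1 and -0.0010 without replicate 2. The causes were not tested. Dim probes such as Ndufa4l2 limit what can be read from the restricted isoforms.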
